A study of Mus musculus with 15 samples.

Results

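The Myc/Max/Mxd network was followed across mouse lymphomas and neuroblastomas with or without caspase-2. The genes were chosen by name as *Myc*, *Mycn*, *Mycl* (written *Mycl1* in the files), *Max*, *Mxd1*, *Mxi1*, *Mxd3*, *Mxd4*, *Mnt* and *Mlx*, which are 10 of the 23329 genes counted. All 10 were among the 14880 genes with a level above 1 CPM, the read count scaled to the size of the library, in at least 3 tumors, which is the set that was tested.

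RNA was sequenced from 15 tumors, each from a different mouse. The 4 *EμMyc* and 3 *EμMyc/Casp2-/-* tumors were lymphomas of cervical lymph nodes on a C57BL/6 background, with onset at 13 to 19 and 8 to 12 weeks. The 4 *Th-MYCN* and 4 *Th-MYCN/Casp2-/-* tumors were paraspinal thoracic neuroblastomas on a Sv129/C57BL6 background, picked for little or no vascularization, with onset at 10 to 21 and 15 to 24 weeks. Every mouse carried a Myc transgene, so no group shows the network without one. In *EμMyc* mice the immunoglobulin heavy chain enhancer drives *Myc* in B-lineage cells, and human MYCN is placed under the promoter of tyrosine hydroxylase, active in sympathetic neuroblasts, in the *Th-MYCN* line. Counts of *Myc* therefore cannot separate the endogenous gene from the transgene, and human MYCN reads were counted only where they aligned to mouse *Mycn*. Tumor type was tied to tissue, strain and transgene, which cannot be told apart. Females were 0 of 4, 1 of 3, 2 of 4 and 3 of 4 mice in the order of the groups given.

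Myc proteins are basic helix-loop-helix leucine zipper factors that bind DNA as dimers with Max and activate genes of growth, ribosome production and metabolism. Mxd1, Mxi1, Mxd3, Mxd4 and Mnt compete for Max and recruit Sin3 and histone deacetylases to repress overlapping genes, and Mlx is the Max-like partner of the glucose-sensing factors MondoA (*Mlxip*) and ChREBP (*Mlxipl*). Amplification of MYCN marks high-risk human neuroblastoma, and translocation of MYC to an immunoglobulin locus marks Burkitt lymphoma.

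Dimers that contain Max bind the E-box CACGTG, which reads the same on both strands. RefSeq promoters (GRCm38.p6, 250 bases before to 50 after a transcript start) were at hand for 9 of the 10 genes, with 11 promoters in all and *Myc* not among them. *Max*, *Mxd4*, *Mnt* and *Mlx* each had the E-box, which 7.15% of all 32851 promoters in the table hold. These windows are shown because the network's own DNA motif lies in the promoters of its members, with the E-box in capitals and 20 bases on either side, on the strand of the gene.
Max, chr12:76962226-76962271, minus strand: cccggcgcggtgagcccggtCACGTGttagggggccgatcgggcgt
Mxd4, chr5:34187904-34187949, minus strand: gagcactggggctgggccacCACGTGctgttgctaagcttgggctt
Mnt, chr11:74830781-74830826, plus strand: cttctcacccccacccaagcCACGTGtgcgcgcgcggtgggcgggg
Mlx, chr11:101087230-101087275, plus strand: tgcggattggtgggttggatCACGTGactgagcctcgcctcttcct
The E-box began 3 bases before the annotated start in *Max*, 40 in *Mlx*, 123 in *Mnt* and 219 in *Mxd4*. These 4 genes did not share a direction between the tumor types, as the values further on show. A match of letters is a description and no evidence of binding.

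Libraries held 4940464 to 17638029 reads on genes in the second-strand column, the least in *EμMyc/Casp2-/-* tumor 1. A count of 3 reads corresponded to 0.173 to 0.586 CPM, a floor for counting error alone. All 8 B cell markers were higher in lymphomas and all 8 neuroblast markers higher in neuroblastomas in both comparisons of tumor types, as the labels state. *Casp2* ran at 125 to 203 CPM in *EμMyc* and 51.9 to 76.1 CPM in *EμMyc/Casp2-/-* tumors (log2 fold change −1.36, FDR 0.0536), and at 76.0 to 126 CPM in *Th-MYCN* and 39.6 to 80.2 CPM in *Th-MYCN/Casp2-/-* tumors (−0.79, FDR 0.327). Counts per gene do not show whether the remaining reads lay outside the deleted part. *EμMyc/Casp2-/-* tumor 1 stood apart. Its 9 T cell markers, all above 1 CPM, summed to 1502 CPM against 30.7 to 218 CPM in the other lymphomas, and its 8 macrophage markers to 1576 CPM against 291 to 1092 CPM, while its B cell markers (2792 CPM) lay inside the range of 2157 to 3816 CPM. It was also the only lymphoma from a female. Between tumor types of wild-type and of *Casp2-/-* mice, 8 and 9 of the 9 T cell markers, 2 and 2 of the 8 macrophage markers and 4 and 5 of 6 endothelial markers were higher in lymphomas and 0 lower. Of 6 Schwann and stromal markers tested 2 were higher and 3 lower, and 0 and 3 in *Casp2-/-* mice. The 1 erythroid marker tested, *Alas2*, was called higher in *Casp2-/-* tumors, where the groups overlapped. There 1 tumor, *EμMyc/Casp2-/-* tumor 3, held 41.3 CPM beside a group median of 2.15 CPM. Among all genes tested, 27.4% and 26.8% were higher and 32.9% and 31.4% lower. The macrophage counts were near these shares, and no marker list was tested against them. The 8 T cell markers called in wild-type mice compared groups without *EμMyc/Casp2-/-* tumor 1. It still entered their tests through the spread, which was estimated from all 15 tumors. The 9 in *Casp2-/-* mice had that tumor in a compared group and were not counted without it. Fold changes of network genes that rest on it are given with and without it.

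*Myc* itself (chromosome 15, 61985391 to 61990374) was the most abundant network transcript of the lymphomas. The *EμMyc* tumors had 1238, 1547, 1556 and 1914 CPM, and the *EμMyc/Casp2-/-* tumors 498, 1346 and 1729 CPM. *Th-MYCN* tumors had 5.37, 6.36, 8.60 and 15.6 CPM, and *Th-MYCN/Casp2-/-* tumors 4.69, 8.86, 11.1 and 11.5 CPM. The lowest lymphoma therefore lay far above the highest neuroblastoma, although *Myc* was still read 73 to 255 times in each neuroblastoma. *EμMyc* exceeded *Th-MYCN* tumors 174-fold (log2 fold change 7.44, SE 0.38, n = 4 and 4, edgeR quasi-likelihood FDR 6.49e-09). In *Casp2-/-* tumors the log2 difference was 7.05 (SE 0.41, n = 3 and 4, FDR 1.6e-08).

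*Mycn* (chromosome 12, 12936093 to 12941914), the family member of the developing nervous system, showed the opposite distribution. *Th-MYCN* tumors had 343, 408, 419 and 430 CPM, and *Th-MYCN/Casp2-/-* tumors 230, 296, 399 and 421 CPM. The 4 *EμMyc* tumors had 0.0856, 0.262, 0.472 and 0.743 CPM, from 1 to 7 reads, and the *EμMyc/Casp2-/-* tumors 0.101, 0.501 and 2.15 CPM, from 1 to 11 reads. The largest of these, 2.15 CPM, was in *EμMyc/Casp2-/-* tumor 1. *Mycn* was lower in lymphomas by a log2 fold change of −10.01 (SE 0.57, FDR 9.27e-10) in wild-type and −8.84 (SE 0.57, FDR 1.13e-08) in *Casp2-/-* tumors. These were the largest absolute fold changes of the 10 genes. Without *EμMyc/Casp2-/-* tumor 1 the latter was −9.95 (FDR 7.7e-09).

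*Mycl* (chromosome 4, 122995652 to 123002485), the third member of the family, followed *Mycn*. Neuroblastomas ran from 25.8 to 66.3 CPM in both genotypes. In the lymphomas it was near the detection limit, with 0, 0.0875, 0.551 and 1.28 CPM in *EμMyc* tumors, from 0 to 15 reads, and 0.909, 2.74 and 3.84 CPM in *EμMyc/Casp2-/-* tumors, from 9 to 46 reads. No lymphoma reached the lowest neuroblastoma. The log2 fold change was −6.43 (SE 0.68, FDR 1.71e-06) in wild-type and −4.28 (SE 0.62, FDR 0.000105) in *Casp2-/-* tumors. Without *EμMyc* tumor 2, which held the 1.28 CPM, the former was −7.44 (FDR 1.21e-06).

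**Figure D1:**
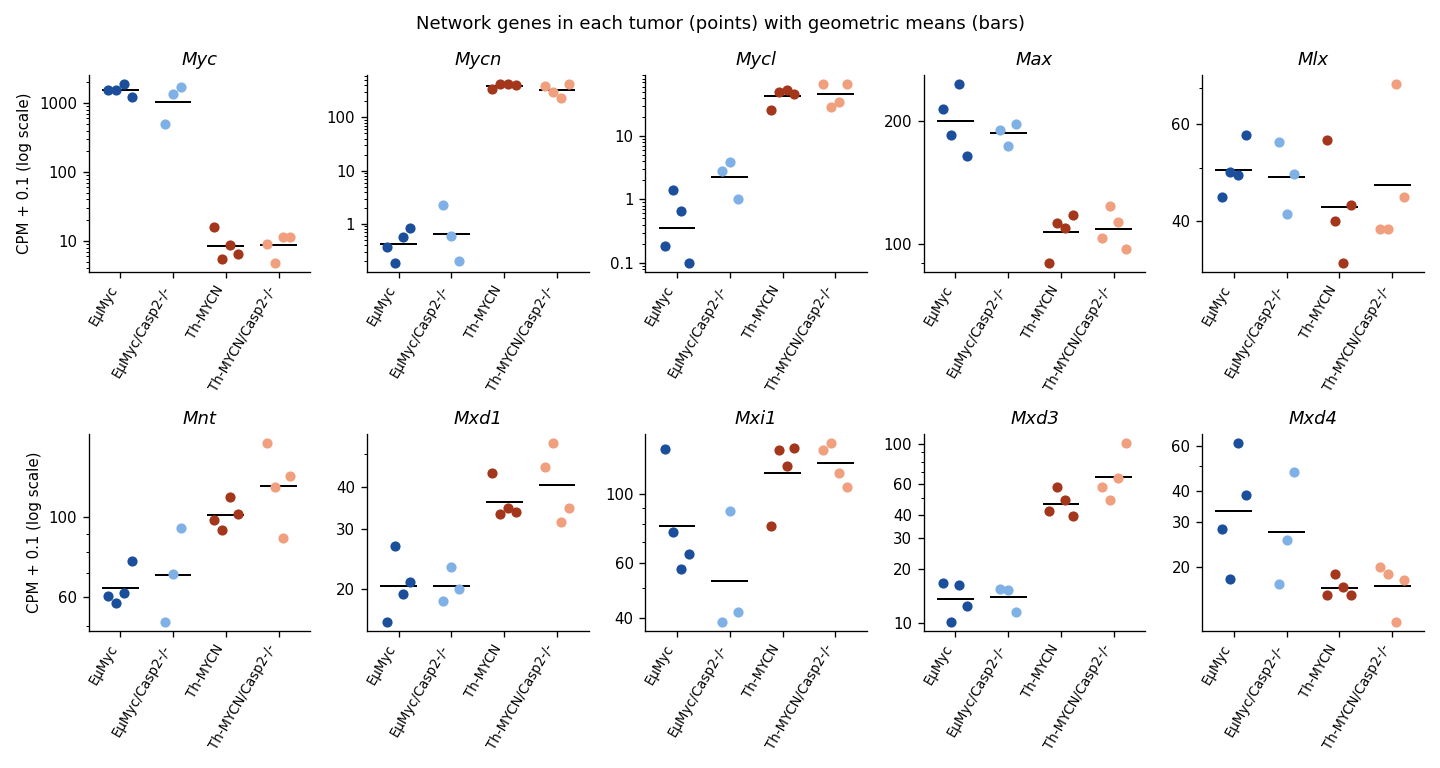
CPM plus 0.1 on a log scale for the 10 network genes (panels) in each tumor (points) of the 4 groups, with bars at geometric means. Myc, at 498 to 1914 CPM in lymphomas and 4.69 to 15.6 CPM in neuroblastomas, and Mycn and Mycl, which lie the other way, show the widest gaps. Mlx, Mxd4, Mxi1 and Mnt overlap between tumor types.

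*Max* (chromosome 12, 76937269 to 76962201), the partner that all Myc and Mxd proteins need to bind DNA, varied little within a tumor type. It was 164, 185, 214 and 247 CPM in *EμMyc* tumors and 174, 191 and 197 CPM in *EμMyc/Casp2-/-* tumors. In *Th-MYCN* tumors it was 90.0, 110, 113 and 118 CPM, and in *Th-MYCN/Casp2-/-* tumors 97.2, 104, 114 and 124 CPM. Every lymphoma was above every neuroblastoma, by 1.88-fold in wild-type (log2 0.91, SE 0.15, FDR 1e-04) and 1.71-fold in *Casp2-/-* tumors (log2 0.77, SE 0.16, FDR 0.000822).

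The antagonists of Myc did not move as a block. *Mxd3* (chromosome 13, 55325168 to 55329823), the Mxd gene known for expression in proliferating cells, was 10.1 to 16.6 CPM over 7 lymphomas (median 15.3) and 39.3 to 102 CPM over 8 neuroblastomas (median 53.1), with no overlap. Its log2 fold change was −1.76 (SE 0.25, FDR 2.49e-05) in wild-type and −2.28 (SE 0.27, FDR 7.85e-06) in *Casp2-/-* tumors. *Prelid1* overlaps it by 105 bases on the other strand. The deposited counts came in nearly equal parts from both strands (first strand 50.7% to 51.2% of stranded reads per library), so reads of overlapping genes cannot be told apart. For *Mxd3*, 63.8% of stranded reads in lymphomas and 54.3% in neuroblastomas were in the first-strand column, and with that column the fold changes were −1.32 and −1.34, both still called.

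*Mnt* (chromosome 11, 74830920 to 74845725), the broadly expressed antagonist, and *Mxd1* (chromosome 6, 86647042 to 86669161), induced during differentiation, were also lower in lymphomas. *Mnt* was 51.2 to 93.0 CPM over the lymphomas (median 61.6) and 87.7 to 161 CPM over the neuroblastomas (median 108), where the *EμMyc* and *Th-MYCN* groups did not overlap and the *Casp2-/-* groups did. Its log2 fold changes were −0.67 (SE 0.20, FDR 0.00963) and −0.81 (SE 0.22, FDR 0.00561). *Mxd1* was 15.9 to 26.6 CPM (median 19.9) against 31.4 to 53.8 CPM (median 34.5), with no overlap, and log2 fold changes of −0.81 (SE 0.22, FDR 0.00501) and −1.01 (SE 0.24, FDR 0.00228).

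*Mxi1* (chromosome 19, 53310518 to 53375810), also called *Mxd2*, passed in the comparison of *Casp2-/-* tumors and not in that of wild-type tumors, and 1 tumor decided each of these outcomes. *EμMyc* tumors had 57.3, 64.1, 75.3 and 139 CPM and *Th-MYCN* tumors 78.6, 123, 138 and 140 CPM, which overlapped, and the log2 fold change of −0.52 (SE 0.31) did not pass (FDR 0.159). Without *EμMyc* tumor 1, which held the 139 CPM, it was −0.83 and passed (FDR 0.0216). *EμMyc/Casp2-/-* tumors had 38.9, 41.7 and 88.2 CPM, all below the 105 to 146 CPM of *Th-MYCN/Casp2-/-* tumors, with a log2 fold change of −1.16 (SE 0.33, FDR 0.00863). That call was lost without *EμMyc/Casp2-/-* tumor 1 (−0.90, FDR 0.0557). The difference between those 2 fold changes was not detected (interaction −0.65, 95% confidence interval −1.61 to 0.31, FDR 0.815).

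*Mxd4* (chromosome 5, 34173883 to 34187720) was the antagonist with the opposite sign. *EμMyc* tumors had 17.9, 28.0, 38.3 and 61.8 CPM and *Th-MYCN* tumors 15.3, 15.4, 16.6 and 18.6 CPM, so the lowest lymphoma lay within the neuroblastoma range. The log2 fold change of 1.15 (SE 0.36, FDR 0.012) passed, but not without *EμMyc* tumor 3 (0.77, FDR 0.0628) and not with sex in the model (0.97, FDR 0.0555). In *Casp2-/-* tumors, at 17.0, 25.5 and 47.4 CPM against 12.1 to 19.8 CPM, it was 0.82 (SE 0.39) and did not pass (FDR 0.0796); without *EμMyc/Casp2-/-* tumor 1 it was 1.16 (FDR 0.0174). *Mlx* (chromosome 11, 101087277 to 101092207) showed no difference that could be detected, at 41.1 to 57.2 CPM in lymphomas and 33.5 to 71.1 CPM in neuroblastomas, with 95% confidence intervals of −0.26 to 0.68 and −0.50 to 0.52. *Psmc3ip* overlaps *Mlx* by 385 bases on the other strand, so reads of these genes cannot be told apart there. The first-strand column held 49.2% of stranded *Mlx* reads in lymphomas and 48.6% in neuroblastomas, nearer to equal parts than for *Mxd3*.

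In total, 3 of the 10 genes were higher and 5 lower in *EμMyc* than in *Th-MYCN* tumors, where 27.4% of all genes tested were higher and 32.9% lower. In the *Casp2-/-* tumors 2 were higher and 6 lower, where the background was 26.8% and 31.4%. In either comparison 7 of the 10 genes had tumor groups free of overlap, against 59.4% and 54.8% of all genes. The share of network genes called higher was near the background, and the share called lower above it, a difference that was not tested. The median log2 fold change of the 10 genes was −0.59 and −0.91, beside −0.04 and −0.05 over all genes. In bulk tumors, fewer cells that express a gene and less RNA per cell cannot be told apart.

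**Figure D2:**
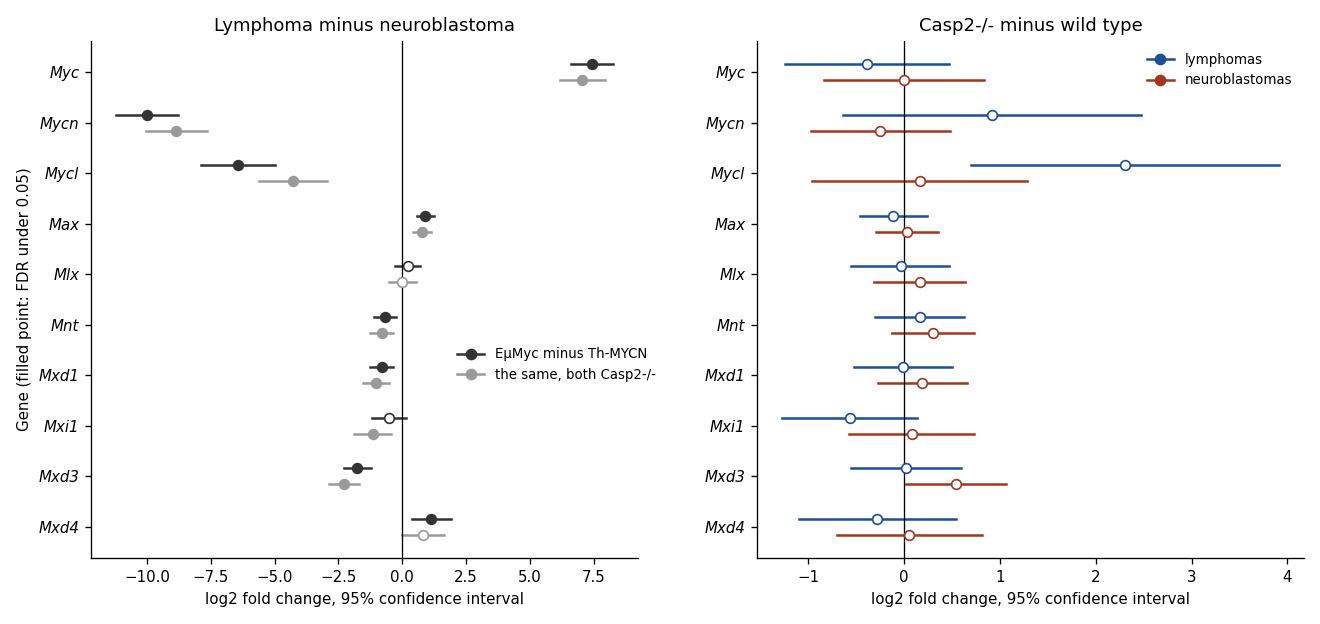
Log2 fold change (x axis) with its 95% confidence interval for each network gene between tumor types (left) and between Casp2 genotypes (right); filled points passed an FDR of 0.05. Of the 10 genes 8 were filled in each comparison of tumor types and 0 in the comparisons of genotypes.

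To compare genes with each other, CPM was divided by exon length in kb (GENCODE M21, GRCm38). On this scale lymphomas were led by *Myc* (median 570 CPM per kb over 7 tumors, range 183 to 704), followed by *Max* at 52.9, *Mlx* at 24.3, *Mnt* at 13.3 and *Mxi1* at 9.40. *Mxd3* at 6.45, *Mxd4* at 3.30 and *Mxd1* at 2.81 came next, and *Mycl* at 0.225 and *Mycn* at 0.143 were last. Each of the top 3 exceeded the next gene in all 7 lymphomas. Lower down the ranges overlapped, with *Mxd4* above *Mxd1* in 4 of 7 tumors.

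Neuroblastomas were led by *Mycn* (median 122 CPM per kb over 8 tumors, range 69.8 to 131), with *Max* second at 30.9. *Mnt*, *Mxd3*, *Mlx* and *Mxi1* were close to each other at 23.3, 22.4, 20.7 and 19.1, and their order changed between tumors. *Mycl* at 11.8 stood above *Mxd1* at 4.88 in 7 of 8 tumors, and *Myc* at 3.21 and *Mxd4* at 2.02 were lowest. *Mycl* gave most of the remaining Myc family signal in neuroblastomas, where *Mycn* made up 84.7% to 91.0% of the family total per kb. In lymphomas *Myc* made up at least 99.3%.

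The balance between family totals also differed by tumor type. The sum of the 3 Myc genes was 9.63 to 11.6 times *Max* in 6 lymphomas and 3.49 times in *EμMyc/Casp2-/-* tumor 1, against 2.61 to 5.48 times in neuroblastomas. The sum of the Mxd genes and *Mnt* was 0.527 to 0.842 times *Max* in lymphomas and 2.01 to 3.47 times in neuroblastomas, with no overlap. The Myc sum exceeded the Mxd and *Mnt* sum 6.62 to 18.3 times in lymphomas and 1.19 to 2.10 times in neuroblastomas. Within neuroblastomas it was 1.98 to 2.10 in *Th-MYCN* and 1.19 to 1.60 in *Th-MYCN/Casp2-/-* tumors, which did not overlap. The lack of overlap depended on *Mxd3*, whose level is uncertain because of its overlap with *Prelid1*. With *Mxd3* left out of the Mxd sum, *Th-MYCN/Casp2-/-* tumor 4 fell inside the *Th-MYCN* range. The other *Th-MYCN/Casp2-/-* tumors stayed below that range. In the *Casp2-/-* group the Myc sum was 98.7 and 82.4 CPM per kb in tumors 2 and 3, and 141 and 148 in tumors 1 and 4. It was 116 to 147 in *Th-MYCN* tumors. *Th-MYCN/Casp2-/-* tumor 4 had a Myc sum of 148 CPM per kb beside 22.4 for the other Mxd genes and 28.2 for *Mnt*. In *Th-MYCN* tumor 4 these were 138, 27.1 and 22.0. Marker sums separated the same groups. The 8 neuroblast markers, each read in every neuroblastoma, summed to 4072 to 4849 CPM in *Th-MYCN* and 2572 to 3977 CPM in *Th-MYCN/Casp2-/-* tumors, and the 6 endothelial markers, likewise all read, to 53.1 to 86.1 and 22.2 to 42.2 CPM. *Th*, whose promoter drives the transgene, was at 314 to 1447 CPM in *Th-MYCN* and 75.9 to 246 CPM in *Th-MYCN/Casp2-/-* tumors (log2 fold change −2.55, SE 0.56, FDR 0.22). Between the genotypes 0 markers of either list passed, where 0.0336% of all genes did. Their part in the ratio was not tested. These are transcript ratios, described without a test, and human MYCN reads that did not align to mouse *Mycn* are missing from them.

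**Figure D3:**
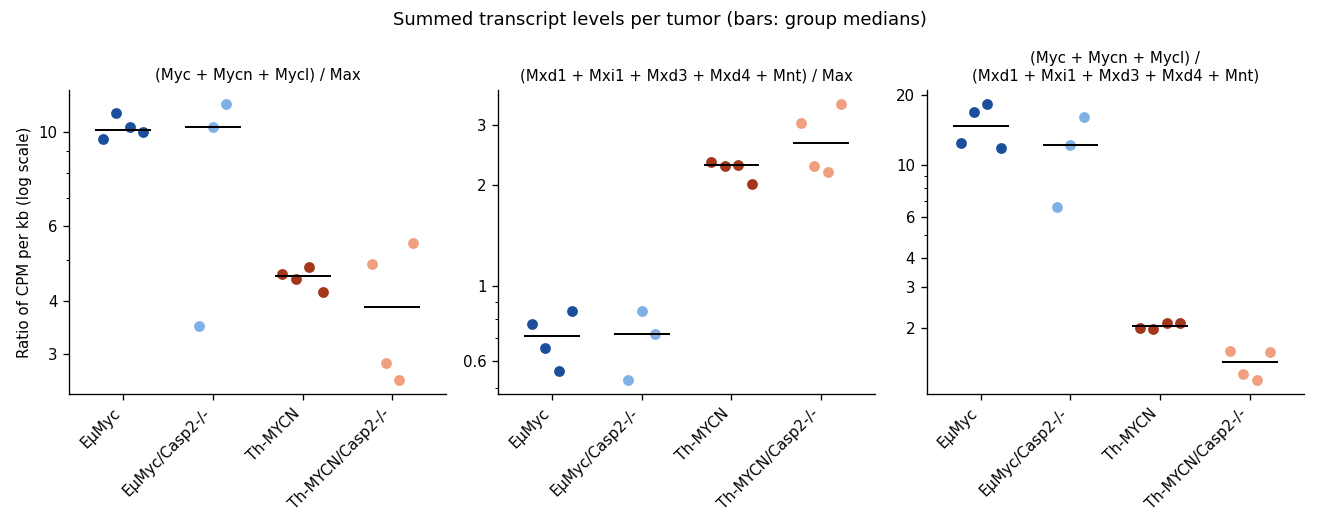
Ratios of summed CPM per kb on a log scale in each tumor (points) of the 4 groups, with bars at group medians. The ratio of Mxd genes and Mnt to Max separates the tumor types (0.527 to 0.842 against 2.01 to 3.47), and 1 EμMyc/Casp2-/- tumor has a low ratio of Myc genes to Max of 3.49.

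Comparison of *Casp2-/-* with wild-type tumors asked whether loss of caspase-2 came with a change of the oncogene or its partners. In neuroblastomas 0 of the 10 genes passed by edgeR's quasi-likelihood test, where 0.0336% of all genes did. By unadjusted p under 0.05 the count was 1 of 10, near the share of all genes (1008 of 14880), and it was 0 by DESeq2 and by edgeR's likelihood ratio test. The driver *Mycn* had a log2 fold change of −0.25 (95% confidence interval −0.98 to 0.48, FDR 0.996), with the 2 lowest values, 230 and 296 CPM, in *Casp2-/-* tumors. *Mxd3* was the gene with the unadjusted p under 0.05. It was 39.3, 42.2, 48.5 and 57.4 CPM in *Th-MYCN* and 49.0, 57.3, 64.2 and 102 CPM in *Th-MYCN/Casp2-/-* tumors, with a log2 fold change of 0.54 (95% confidence interval 0.02 to 1.06, FDR 0.716). *Mnt* had 0.30 (−0.13 to 0.73, FDR 0.921) and *Max* 0.03 (−0.30 to 0.35, FDR 1).

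In lymphomas 0 of the 10 genes passed by the quasi-likelihood test, where 0.141% of all genes did, and 1 of 10 had an unadjusted p under 0.05, near the share of all genes (1269 of 14880). That gene was *Mycl*, with a log2 fold change of 2.31 (SE 0.75, 95% confidence interval 0.70 to 3.91) and an FDR of 0.302. With a tumor left out it ran from 1.78 without *EμMyc/Casp2-/-* tumor 2 to 3.39 without *EμMyc* tumor 2, and it was not called in any of these fits. DESeq2 called it (2.38, FDR 0.0297), and so did the likelihood ratio test (2.32, FDR 0.0341). Its groups overlapped, with 1.28 CPM in *EμMyc* tumor 2 above 0.909 CPM in *EμMyc/Casp2-/-* tumor 3, and its level stayed below that of every neuroblastoma. The driver *Myc* had −0.39 (95% confidence interval −1.25 to 0.46, FDR 0.819), and −0.01 without *EμMyc/Casp2-/-* tumor 1. *Mycn* had 0.91 (−0.64 to 2.47, FDR 0.783), and −0.24 without that tumor. Both values thus rested on the library with the least depth and the most T cell and macrophage marker signal, whose part in them was not tested.

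**Figure D4:**
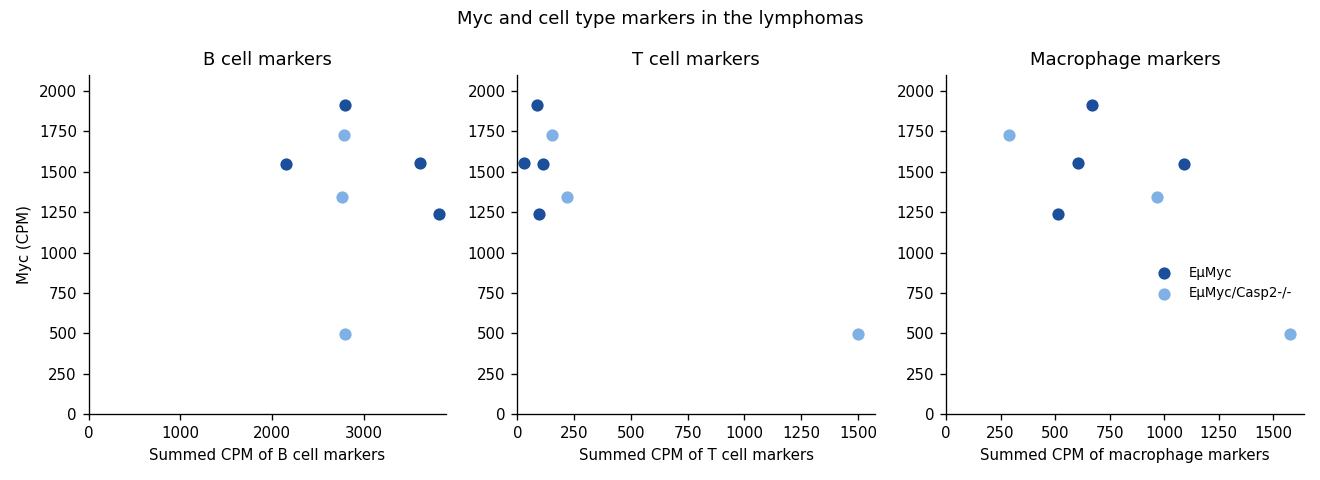
Myc level (y axis, CPM) against the summed CPM of B cell, T cell and macrophage markers (x axes) in the 7 lymphomas. The tumor with 498 CPM of Myc is that with 1502 CPM of T cell and 1576 CPM of macrophage markers, and its B cell sum of 2792 CPM lies among the others.

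Wild-type and *Casp2-/-* groups overlapped for all 10 genes within each tumor type, while 6.62% of all genes in neuroblastomas and 3.7% in lymphomas had groups without overlap. The genotype effect on the network was not shown to differ between tumor types. The interaction was past the FDR for 0 of the 10 genes, where 0.0538% of all genes passed, and 1 of 10 (*Mycl*, 2.14, 95% confidence interval 0.19 to 4.10, FDR 0.617) had an unadjusted p under 0.05, as did 1127 of all 14880. For *Mxd3* it was −0.52 (−1.30 to 0.25) and for *Mycn* 1.16 (−0.55 to 2.88). The widest intervals were those of *Mycl* and *Mycn*, which lymphomas hardly transcribed.

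Other members of the extended network were few. *Mlxip*, which encodes MondoA, was 162 to 324 CPM in the lymphomas and 68.7 to 93.2 CPM in the neuroblastomas. It was higher in lymphomas (log2 fold changes 1.35, SE 0.22, FDR 7.78e-05, and 1.46, SE 0.23, FDR 7.38e-05), while its partner *Mlx* was not called. *Mlxipl* was at or under 1.93 CPM in every tumor, and *Mga*, a Max partner with a T-box, was not called (0.43, FDR 0.224, and 0.12, FDR 0.766). Of the MondoA and ChREBP targets, *Arrdc4* was lower in lymphomas (−2.82, FDR 0.000125, and −1.97, FDR 0.00458). *Txnip*, at 214 to 411 CPM in *EμMyc* and 88.0 to 314 CPM in *Th-MYCN* tumors, was called only in the *Casp2-/-* comparison (1.12, FDR 0.0264; 0.70, FDR 0.121 in wild type), a difference between comparisons that was not detected (interaction 0.42, FDR 0.928).

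Canonical Myc-activated genes were mostly higher in lymphomas. Of 20, 15 were higher and 1 lower in *EμMyc* than *Th-MYCN* tumors (median log2 fold change 1.28), and 15 were higher and 0 lower in *Casp2-/-* tumors (1.57). Among all genes tested, 27.4% were higher and 32.9% lower, and 26.8% and 31.4% in *Casp2-/-* tumors. The list was chosen with earlier results of these data known, and its difference from these shares was not tested. *Shmt2*, of mitochondrial one-carbon metabolism, had log2 fold changes of 2.96 and 3.89, *Cdca7* 2.67 and 2.70, and *Dkc1*, the pseudouridine synthase of ribosomal RNA, 2.29 and 1.99. *Tert*, the telomerase subunit, was the exception in wild-type tumors (−2.10, FDR 0.0105), at 9.41 to 12.3 CPM in *Th-MYCN* and 0.0875 to 4.88 CPM in *EμMyc* tumors, and was not called in *Casp2-/-* tumors (0.05, FDR 0.962). Since both tumor types are driven by a Myc protein, these counts compare the types and not Myc with its absence. Of 6 proliferation markers, 2 were higher in lymphomas in each comparison and 0 lower.

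Of 8 Myc-repressed genes, 5 were lower and 0 higher in lymphomas in each comparison, with medians of −1.33 and −1.77. Among all genes tested, 32.9% and 31.4% were lower and 27.4% and 26.8% higher. The difference of this list from these shares was not tested, and it too was chosen with earlier results known. *Ndrg1* fell most in wild type (−2.86, FDR 3.83e-07), from 86.4 to 144 CPM in *Th-MYCN* to 10.4 to 18.4 CPM in *EμMyc* tumors. *Ndrg2* (−2.41, FDR 0.000734) and the cyclin-dependent kinase inhibitors *Cdkn1a* (−1.45, FDR 0.0036) and *Cdkn1b* (−1.21, FDR 9.65e-07) were lower as well. For *Cdkn1a* these groups overlapped, at 15.4 to 33.5 CPM in *EμMyc* and 30.5 to 87.0 CPM in *Th-MYCN* tumors. In *Casp2-/-* tumors its groups did not overlap (−2.41, FDR 0.000229).

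Cofactors and regulators of Myc protein stability were mixed. Of 17 cofactors 7 were higher and 3 lower in *EμMyc* than *Th-MYCN* tumors, and 6 and 3 in *Casp2-/-* tumors. Of all genes, 27.4% were higher and 32.9% lower, and 26.8% and 31.4% in *Casp2-/-* tumors, and the difference of the cofactors from these shares was not tested. The histone deacetylase *Hdac1*, which Mxd complexes recruit, had 1.07 and 1.23, and the Myc-binding chromatin protein *Wdr5* 0.76 and 0.71. *Trrap*, a scaffold of acetyltransferase complexes, was lower in wild type (−0.73, FDR 0.00366) and not called in *Casp2-/-* tumors (−0.46, FDR 0.0689).

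Of 18 stability regulators 5 were higher and 5 lower, and 4 and 4 in *Casp2-/-* tumors, so that the shares called were near or below those of all genes. *Ppp2r5a*, a regulatory subunit of the phosphatase that removes a stabilizing phosphate from Myc, was 176 to 455 CPM in lymphomas and 10.9 to 30.0 CPM in neuroblastomas (4.04, SE 0.33, FDR 2.08e-07, and 3.50, SE 0.36, FDR 1.4e-06). The ubiquitin ligase *Fbxw7* (−1.53 and −1.38), the kinase *Gsk3b*, which primes Myc for it (−1.37 and −1.19), and the ligase *Trim32* (−1.65 and −1.82) were lower in lymphomas in both comparisons. By the quasi-likelihood test no gene of any of these lists passed in a comparison of *Casp2* genotypes or in the interaction. Among all genes, 0.0336% passed in neuroblastomas, 0.141% in lymphomas and 0.0538% in the interaction. The likelihood ratio test and DESeq2 were not read for these lists.

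**Figure D5:**
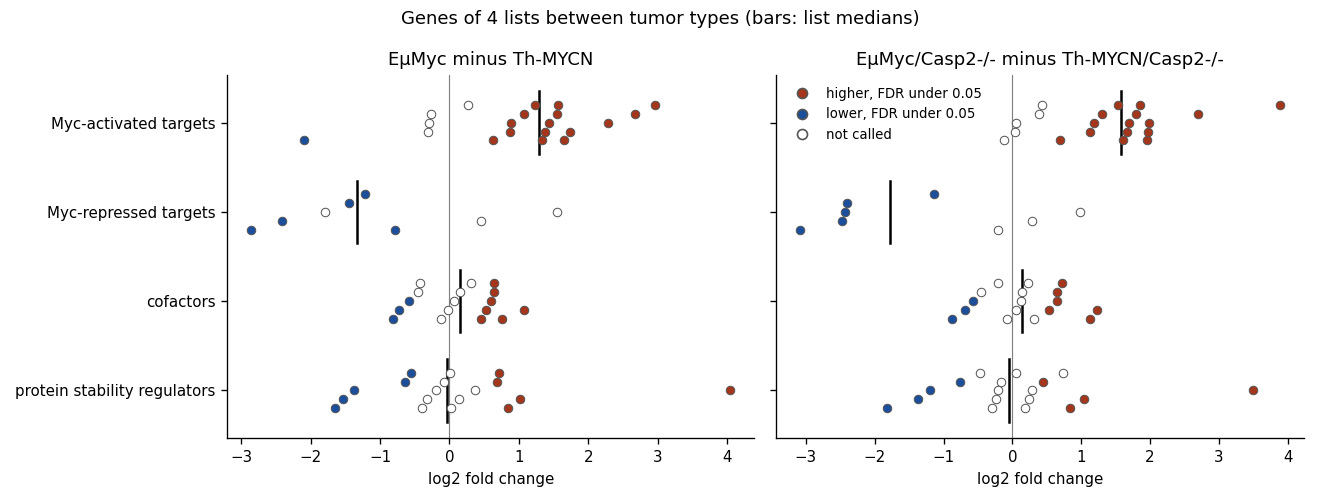
Log2 fold change (x axis) of each gene (points) in 4 lists (rows) between tumor types of wild-type (left) and Casp2-/- mice (right), colored by call, with bars at list medians. Myc-activated genes lie mostly right of 0 (15 of 20 higher in each comparison) and Myc-repressed genes left (5 of 8 lower), while cofactors and stability regulators lie on either side. Among all genes tested, 27.4% and 26.8% were higher and 32.9% and 31.4% lower.

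Genes next to *Myc* and *Mycn* were mixed, some moving in the direction of their neighbor and others not. *Pvt1*, the noncoding RNA beside *Myc*, was 17.9 to 19.4 CPM in *EμMyc* and 25.4 to 42.0 CPM in *Th-MYCN* tumors (−0.86, FDR 0.00488) and was not called in *Casp2-/-* tumors (−0.32, FDR 0.296). *Fam84b* was higher in lymphomas (2.70, FDR 3.94e-05, and 2.37, FDR 0.000196), *Asap1* was not called (−0.40, FDR 0.24), and *Gsdmc* had no read. Beside *Mycn*, *Ddx1*, often coamplified with MYCN in human tumors, was 221 to 361 CPM in *EμMyc* and 260 to 305 CPM in *Th-MYCN* tumors (−0.02, FDR 0.908), *Nbas* had −0.73 (FDR 0.0057) and *Fam49a* −0.74 (FDR 0.0376). In *Casp2-/-* tumors neither was called (*Nbas* −0.24, FDR 0.354, and *Fam49a* −0.73, FDR 0.0621).

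Among tested genes outside the network, those whose log2 CPM followed *Myc* most closely over the 15 tumors were *1810046K07Rik*, *Ets1*, *Hnrnpf*, *Hesx1* and *Pop1* (Pearson r 0.990 to 0.993). For *Mycn* they were *Lrrc4b*, *Brsk2*, *Brsk1*, *Dpysl5* and *Msi1* (r 0.996 to 0.998). The tumors form separate clusters by type and r rests on that contrast, so that 562 genes had an r over 0.95 with *Myc* and 1421 with *Mycn*.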

How the data were processed

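Poly(A) RNA of 15 tumors was sequenced by the study on an Illumina HiSeq instrument (single reads, 50 bases), and reads were checked with FastQC and aligned to mm10/GRCm38 with STAR. The authors deposited raw counts per gene, not normalized, in a column that ignores strand and in one for each strand. The annotation release is not given in the sources used here. The second-strand counts were used, as in the study, and hold about 1 read for every 2 counted on either strand. Rows without a gene, 57.1% to 60.5% of reads in that column (14.5% to 20.8% with either strand), were left out.

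Tools were edgeR 4.0.16 and DESeq2 1.42.0 under R 4.3.3, and matplotlib for plots. The filter kept genes above 1 CPM in 3 or more tumors, libraries were scaled by TMM, and 4 group means were fitted to all tumors with edgeR's quasi-likelihood test. A call was a Benjamini-Hochberg FDR under 0.05 over all 14880 genes. Differences are lymphoma minus neuroblastoma or *Casp2-/-* minus wild type. CPM is scaled by TMM and log2 CPM has a prior count of 2. The fits were tested on simulated data. Alternatives were other tests (likelihood ratio, DESeq2), scalings, low-count filters, strand columns, sex as a covariate, 2-group fits and each tumor left out. The first-strand column was added after seeing the data.

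Groups follow the sample labels, sex the study's records, and tumors are numbered in the order of the series. Pairs of tumors in a group differed by a chi-square of 16.8 to 76.9 per degree of freedom over 21 pairs, far above counting error. A further *EμMyc/Casp2-/-* tumor was not analysed here. The members and lists were chosen with earlier results of these data known. Named are all 10 network genes, *Mga*, *Mlxip*, *Mlxipl*, the neighbors, at most 4 called genes per list with the largest change in *EμMyc* against *Th-MYCN* and the 5 genes most like *Myc* or *Mycn*. A cofactor that this rule names is not reported here. *Casp2* is given as the deleted gene, and *Txnip*, *Th* and *Alas2* were added after their values were seen.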

Additional observations from a re-analysis of the deposited data

Results flagged for a closer look

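In groups of 4 tumors, 30 combinations of gene and group were examined for a tumor far from its group, and 1 was found. Chance flags about 1 in 20 combinations, so 1 of 30 is no more than chance gives. *Th-MYCN* tumor 1 had 43.7 CPM of *Mxd1*, with the next tumor at 34.5 CPM. It had 25.8 CPM of *Mycl* and 343 CPM of *Mycn*, the lowest of its group, and 15.6 CPM of *Myc*, the highest, and none of these was that far apart. Without it the fold change of *Mxd1* between genotypes of the neuroblastomas stayed uncalled.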

How the results depend on the processing

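Between tumor types, *Myc*, *Mycn*, *Mycl*, *Max*, *Mxd1*, *Mxd3* and *Mnt* kept direction and call in both comparisons under all 10 other settings and with each tumor left out. *Mxd4* and *Mxi1* did not, as given with their values above. Over all fold changes of network genes, 466 values under other settings kept direction and call, 21 changed sign, 2 gained a call and 1 lost it, and with a tumor left out these were 416, 30, 2 and 2. Every sign change was in a value that was not called, and the cause was not tested.

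Over all genes, the neuroblastoma genotypes gave 5 calls, against 133 by the likelihood ratio test and 141 by DESeq2, and 2 to 27 with a tumor left out (27 without *Th-MYCN* tumor 1). The lymphoma genotypes gave 21, against 223 and 218, 9 with sex as a covariate, 1 with only the 2 groups and 10 to 170 with a tumor left out (10 without *EμMyc/Casp2-/-* tumor 1, 170 without tumor 3). The interaction gave 8, against 136 and 126, 4 with either-strand and 4 with first-strand counts, 5 with sex and 4 to 28 with a tumor left out. The likelihood ratio test and DESeq2 each called 1 network gene, *Mycl*, by genotype in lymphomas.

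Between *Casp2-/-* tumor types *Mlx* was −0.016 by DESeq2, −0.015 with its size factors and −0.021 without a filter, and −0.083 to 0.259 with a tumor left out. By genotype in neuroblastomas *Myc* was 0.003 by the likelihood ratio test, with either-strand counts and with sex, 0.015 by DESeq2, 0.01 with its size factors, 0.019 without a filter, 0.002 over 5 CPM and 0.012 with only the 2 groups, and *Mxd4* was −0.017 with first-strand counts. With a tumor left out *Myc* ran from −0.18 to 0.403, *Mycl* from −0.022 to 0.346, *Max* from −0.051 to 0.095, *Mxi1* from −0.079 to 0.172, *Mxd4* from −0.027 to 0.185 and *Mlx* from −0.09 to 0.313.

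By genotype in lymphomas *Mxd1* was 0.025 by DESeq2, 0.022 with its size factors, 0.037 with library totals, 0.001 with either-strand and 0.026 with first-strand counts, and *Mlx* was 0.014 with library totals, 0.061 with either-strand and 0.162 with first-strand counts. With a tumor left out *Mycn* ran from −0.235 to 1.52, *Mxd1* from −0.095 to 0.148, *Mxd3* from −0.096 to 0.149, *Mxd4* from −0.774 to 0.099, *Mnt* from −0.077 to 0.363 and *Mlx* from −0.136 to 0.082. In the interaction *Mlx* was 0.046 with first-strand counts, and with a tumor left out *Mxd4* ran from −0.826 to 0.048, *Mnt* from −0.378 to 0.057 and *Mlx* from −0.352 to 0.051.

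No paired analysis was possible because the tumor numbers only name tumors in the order of the series and the labels tie no tumors of different groups together. With 3 or 4 tumors a group, the 95% confidence intervals of the drivers between genotypes reached −0.98 for *Mycn* in neuroblastomas and −1.25 for *Myc* in lymphomas.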
